A study of Arabidopsis thaliana with 6 samples.

Results

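Glutathione transferases and dehydroascorbate reductases were taken as 52 loci of Arabidopsis thaliana from the tau, phi, zeta, theta, lambda and DHAR classes. They were listed by locus identifier and not by any measured value, though with earlier results of these data known. Of these, 14 were named by a probe set that the platform annotation pairs with exactly 1 gene, out of 13356 genes named in that way, and the other 38 loci are not analysed here. The 14 measured members were 11 of 28 tau genes (GSTU15, GSTU16, GSTU18, GSTU20 to GSTU23 and GSTU25 to GSTU28), 2 of 13 phi genes (GSTF4 and GSTF13) and 1 of 3 lambda genes (GSTL3). The zeta, theta and DHAR classes had 0 measured members, so nothing is said of them here.

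Glutathione transferases are soluble enzymes that join the tripeptide glutathione to electrophilic compounds, which marks these for transport into the vacuole. The tau and phi classes have expanded in plants, often by tandem duplication, and many of their genes are induced by herbicides, safeners and oxidative stress. Lambda enzymes carry a cysteine in place of the usual catalytic serine and act as thiol transferases rather than conjugating enzymes.

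Seedlings of 3 genotypes were compared on Affymetrix arrays, with 2 arrays each of wild type (WT), the mutant bin4-1 and the mutant bin4-2. Both mutants carry an allele of BIN4, a component of the plant topoisomerase VI complex. The labels give only the genotype and the tissue; ecotype, seedling age, growth conditions and the lesion of each allele are not stated. Nor do they say whether a group's arrays came from separate cultures, so a p-value here reflects array-to-array spread that could be technical.

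Arrays of 1 group correlated at 0.995 to 0.997 over probe sets, WT with mutant arrays at 0.905 to 0.916. BIN4 itself (AT5G24630), a dim gene, had a log2 intensity of 3.78 and 3.93 in WT, 3.30 and 3.35 in bin4-1, and 2.92 and 3.05 in bin4-2. The Rubisco activase gene RCA, a marker of green shoot tissue, lay between 10.05 and 12.30, and the root-hair expansin genes EXPA7 and EXPA18 between 4.13 and 5.78. The pollen polygalacturonase gene AT3G07820 lay between 2.42 and 2.63, at or below percentile 6.54 of both WT arrays. Of the markers listed, 1 of 3 for shoot, 2 of 4 for root, 1 of 3 for pollen and 0 of 3 for seed were measured. On the log2 scale RCA changed by -2.20 ± 0.10 and -1.83 ± 0.10 (SE) and EXPA18 by -1.09 and -1.46, each in bin4-1 and then bin4-2. EXPA7 changed by -0.21 in bin4-1, where it did not pass (limma adjusted p = 0.174), and by -0.57 in bin4-2 (adjusted p = 0.00163).

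Falls outnumbered rises among the measured members in each mutant, as they did over all genes. In bin4-1, GSTU20, GSTU23, GSTU18, GSTF4, GSTU28 and GSTU27 fell and GSTU25 and GSTU22 rose, 6 and 2 of 14 members. In bin4-2 the same 8 genes changed in the same directions and GSTU26 fell too, which gave 7 falls and 2 rises. The test was limma's moderated test with Benjamini-Hochberg adjustment over all 13356 genes and a threshold of 0.05. Of all genes, 25% fell and 22% rose in bin4-1, and 26.6% fell and 21.1% rose in bin4-2. Both comparisons share the WT arrays. The median log2 change of the members was -0.24 in bin4-1 and -0.41 in bin4-2, beside -0.08 and -0.09 over all genes. In bulk seedling RNA, fewer cells of a type and less RNA per cell cannot be told apart.

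WT and mutant arrays did not overlap for 9 of the 14 members, a share close to that over all genes. All 4 mutant arrays lay below both WT arrays for GSTU20, GSTU18, GSTU23, GSTF4, GSTU28 and GSTU27, and above them for GSTU25, GSTU22 and GSTU15. Over all genes, 35.8% lay below in this way and 25.9% above. A fall of at least 2-fold that passed in both alleles was found for 1 member, GSTU20, and such a rise for 1, GSTU25. Of all genes, 6.04% fell and 6.61% rose by that rule. GSTU18 and GSTU23 stood next to that limit, GSTU18 at 1.96-fold and 2.03-fold lower in bin4-1 and bin4-2 and GSTU23 at 2.02-fold and 1.9-fold lower.

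**Figure D1:**
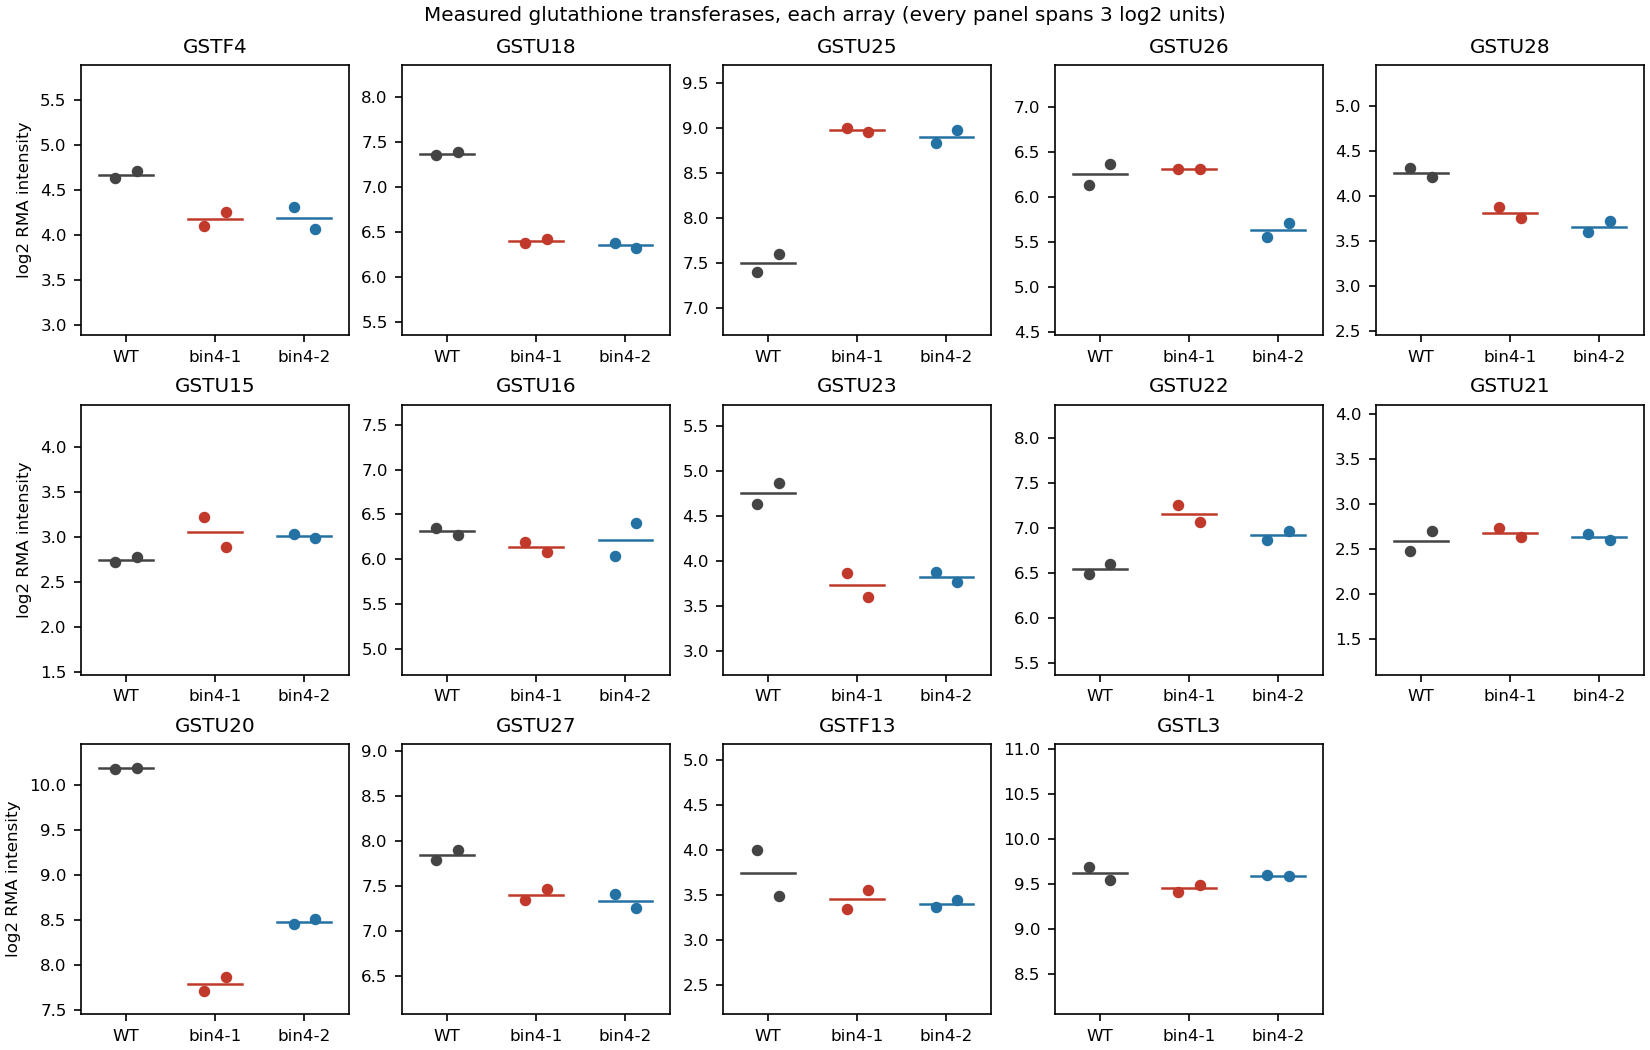
Log2 RMA intensity of the 14 measured members on each of the 6 arrays (points) with the group mean (bars), for WT, bin4-1 and bin4-2. Every panel spans the same range of log2 units, so distances can be compared between panels but levels of different probe sets cannot. GSTU20 drops from 10.17 and 10.19 in WT to between 7.71 and 8.50 in the mutants, and GSTU25 climbs from 7.39 and 7.60 to between 8.83 and 9.00.

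The largest tandem cluster with measured members held GSTU23 (AT1G78320), GSTU22 (AT1G78340), GSTU21 (AT1G78360), GSTU20 (AT1G78370) and GSTU19 (AT1G78380) on chromosome 1, of which GSTU19 was not measured here. Within it, GSTU20 and GSTU23 fell, GSTU22 rose and GSTU21 stayed close to the lowest intensities of the array.

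GSTU20 encodes a tau enzyme known to bind FIN219/JAR1, the jasmonate-conjugating enzyme of far-red light signalling. Its log2 intensity was 10.17 and 10.19 in WT, 7.71 and 7.86 in bin4-1, and 8.45 and 8.50 in bin4-2. Both mutants were far below WT, with bin4-2 between the other groups and no overlap among the 3. GSTU20 was 5.26-fold lower in bin4-1 (log2 -2.39 ± 0.10, with limma's SE, adjusted p = 5.86e-09) and 3.26-fold lower in bin4-2 (log2 -1.70 ± 0.10, adjusted p = 9.11e-08). Its mean intensity on the linear scale went from 1161 in WT to 221 in bin4-1 and 356 in bin4-2. Counted from the lowest change of the 13356 genes, it held rank 81 in bin4-1 and rank 217 in bin4-2. The shoot marker RCA moved with it, as given above, and its part in the result was not tested.

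GSTU23, the first gene of the cluster by locus number, was of moderate intensity in WT. Its log2 values were 4.63 and 4.87 in WT, 3.87 and 3.60 in bin4-1, and 3.87 and 3.77 in bin4-2. Each mutant array lay below each WT array, and the alleles overlapped. Against WT, limma gave a log2 change of -1.01 ± 0.13 for bin4-1 (adjusted p = 3.31e-05) and -0.93 ± 0.13 for bin4-2 (adjusted p = 7.17e-05).

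GSTU22 lies between these falling genes and rose. Log2 intensities of GSTU22 were 6.48 and 6.60 in WT, 7.25 and 7.06 in bin4-1, and 6.87 and 6.96 in bin4-2. Every mutant array exceeded both WT arrays, those of bin4-1 by more than those of bin4-2. The rise was 1.53-fold in bin4-1 (log2 0.61 ± 0.11, adjusted p = 0.000674 by limma) and 1.29-fold in bin4-2 (log2 0.37 ± 0.11, adjusted p = 0.0156). The bin4-2 call did not hold without WT replicate 1 (0.31, adjusted p = 0.0729) or without bin4-2 replicate 2 (0.33, adjusted p = 0.0926).

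GSTU21, the direct neighbour of GSTU20, gave 2.48 and 2.70 in WT, 2.73 and 2.63 in bin4-1, and 2.66 and 2.60 in bin4-2. The WT values lay at or below percentile 8.44 of the genes on their arrays, and the groups overlapped. The 95% interval of the log2 change of GSTU21 was -0.15 to 0.34 in bin4-1 and -0.20 to 0.29 in bin4-2. With no background level deposited, a change below the range of the array could not have been seen.

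**Figure D2:**
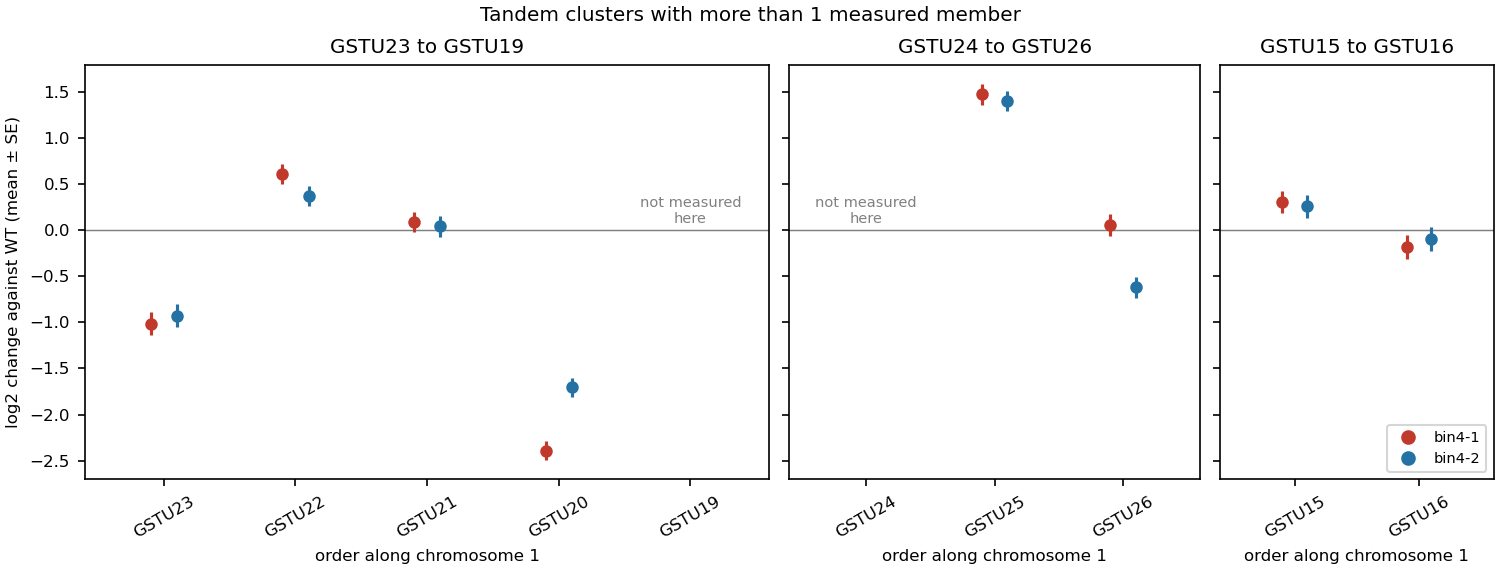
Log2 change against WT (limma estimate, bars show the SE) in bin4-1 and bin4-2 for the members of the 3 tandem clusters that hold more than 1 measured member, in their order along chromosome 1. In the cluster from GSTU23 to GSTU19 the changes span from -2.39 (GSTU20) to 0.61 (GSTU22) in bin4-1, and in the cluster from GSTU24 to GSTU26 the neighbours GSTU25 and GSTU26 stand at 1.48 and 0.06.

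The cluster of GSTU24 (AT1G17170), GSTU25 (AT1G17180) and GSTU26 (AT1G17190), also on chromosome 1, held the member with the largest rise next to one that fell in a single allele. GSTU24 was not measured here. GSTU25, an enzyme known to conjugate glutathione to the explosive TNT and induced by it, had log2 values of 7.39 and 7.60 in WT, 9.00 and 8.95 in bin4-1, and 8.83 and 8.97 in bin4-2. All mutant arrays stood well above WT and the alleles overlapped. GSTU25 rose 2.79-fold in bin4-1 (log2 1.48 ± 0.11, adjusted p = 5.04e-07 by limma) and 2.65-fold in bin4-2 (log2 1.41 ± 0.11, adjusted p = 8.25e-07). Counted from the highest change of all genes it held rank 513 in bin4-1 and rank 553 in bin4-2.

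GSTU26, the next locus, passed as lower in bin4-2 only, and the difference between the alleles is given below with its limits. The arrays gave 6.13 and 6.37 in WT, 6.31 and 6.32 in bin4-1, and 5.56 and 5.71 in bin4-2. The bin4-1 arrays lay within the WT values, while both bin4-2 arrays were lower than every other array. The log2 change was 0.06 ± 0.12 for bin4-1 (95% interval -0.19 to 0.31) and -0.62 ± 0.12 in bin4-2, which is 1.53-fold lower (limma adjusted p = 0.000836).

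The pair GSTU15 (AT1G59670) and GSTU16 (AT1G59700) on chromosome 1 passed in neither allele. GSTU15 was dim, with 2.72 and 2.77 in WT, 3.22 and 2.88 in bin4-1, and 3.03 and 2.99 in bin4-2. Its mutant arrays all exceeded WT, by 0.31 ± 0.12 in bin4-1 and 0.26 ± 0.12 in bin4-2 (SE, limma adjusted p = 0.0579 and 0.101). The bin4-1 value was 0.14 without bin4-1 replicate 1 (adjusted p = 0.494) and 0.48 without bin4-1 replicate 2 (adjusted p = 0.017). It also passed with an intensity trend in the variance model (adjusted p = 0.0481), and both alleles passed after quantile normalization (0.37 and 0.35, adjusted p = 0.0318 and 0.0434). With the values as deposited and all arrays, only the mean of both alleles passed for GSTU15 (0.29 ± 0.11, adjusted p = 0.0408). That call was lost on leaving out WT replicate 1 or 2, bin4-1 replicate 1, or bin4-2 replicate 1 or 2, with adjusted p of 0.0673 to 0.15. GSTU16 gave 6.35 and 6.27 in WT, 6.19 and 6.08 in bin4-1, and 6.04 and 6.40 in bin4-2. The groups overlapped, and its 95% intervals were -0.46 to 0.10 in bin4-1 and -0.38 to 0.19 in bin4-2.

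In 3 further tandem clusters 1 member each was measured. GSTU18 (AT1G10360), paired with the light- and drought-related GSTU17, had log2 values of 7.36 and 7.38 in WT, 6.38 and 6.43 in bin4-1, and 6.38 and 6.32 in bin4-2. The mutants lay about 1 log2 unit below WT with no overlap, at -0.97 ± 0.10 for bin4-1 and -1.02 ± 0.10 for bin4-2 (limma's SE, adjusted p = 7.12e-06 and 4.73e-06). GSTF4 (AT1G02950), at the end of the phi cluster of GSTF7, GSTF6 and GSTF5, gave 4.63 and 4.71 in WT, 4.10 and 4.26 in bin4-1, and 4.32 and 4.07 in bin4-2. It fell by 0.49 in bin4-1 and by 0.48 in bin4-2 (adjusted p = 0.00459 and 0.00528). Without bin4-1 replicate 1 the first of these did not pass (-0.41, adjusted p = 0.0542), nor the second without bin4-2 replicate 2 (-0.35, adjusted p = 0.0608). GSTL3 (AT5G02790), the only lambda member measured, gave 9.69 and 9.55 in WT, 9.42 and 9.49 in bin4-1, and 9.60 and 9.59 in bin4-2. Its groups overlapped, with 95% intervals of -0.40 to 0.06 in bin4-1 and -0.26 to 0.20 in bin4-2. An intensity trend in the variance model brought bin4-1 past the threshold (-0.17, adjusted p = 0.0442).

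The remaining 3 measured members have no other member within 50 locus numbers. GSTU27 (AT3G43800) had log2 values of 7.79 and 7.90 in WT, 7.34 and 7.47 in bin4-1, and 7.41 and 7.25 in bin4-2. GSTU28 (AT1G53680) had 4.31 and 4.21 in WT, 3.87 and 3.75 in bin4-1, and 3.59 and 3.71 in bin4-2. Both genes were lower on every mutant array than on either WT array. The log2 change of GSTU27 was -0.44 ± 0.11 and then -0.51 ± 0.11 in the alleles (limma adjusted p = 0.00563 and 0.00203). GSTU28 changed by -0.45 ± 0.11 and -0.60 ± 0.11 (adjusted p = 0.00457 and 0.00057). Each bin4-1 call was lost on leaving out 1 of its arrays, which leaves 1 bin4-1 array in the fit. GSTU27 gave -0.38 without bin4-1 replicate 1, and GSTU28 gave -0.39 without bin4-1 replicate 2. The phi gene GSTF13 (AT3G62760) gave 4.01 and 3.49 in WT, 3.35 and 3.56 in bin4-1, and 3.37 and 3.45 in bin4-2. Its WT arrays had the widest spread of the members (SD 0.37, n = 2) and overlapped the mutants, and no contrast passed, at -0.29 ± 0.15 in bin4-1 and -0.34 ± 0.15 in bin4-2 (SE, limma adjusted p = 0.145 and 0.0919). These values depended on the WT arrays. Without WT replicate 1 they were -0.03 and -0.08 (adjusted p = 0.859 and 0.658), and without WT replicate 2 they were -0.55 and -0.60 (adjusted p = 0.00563 and 0.00345).

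**Figure D3:**
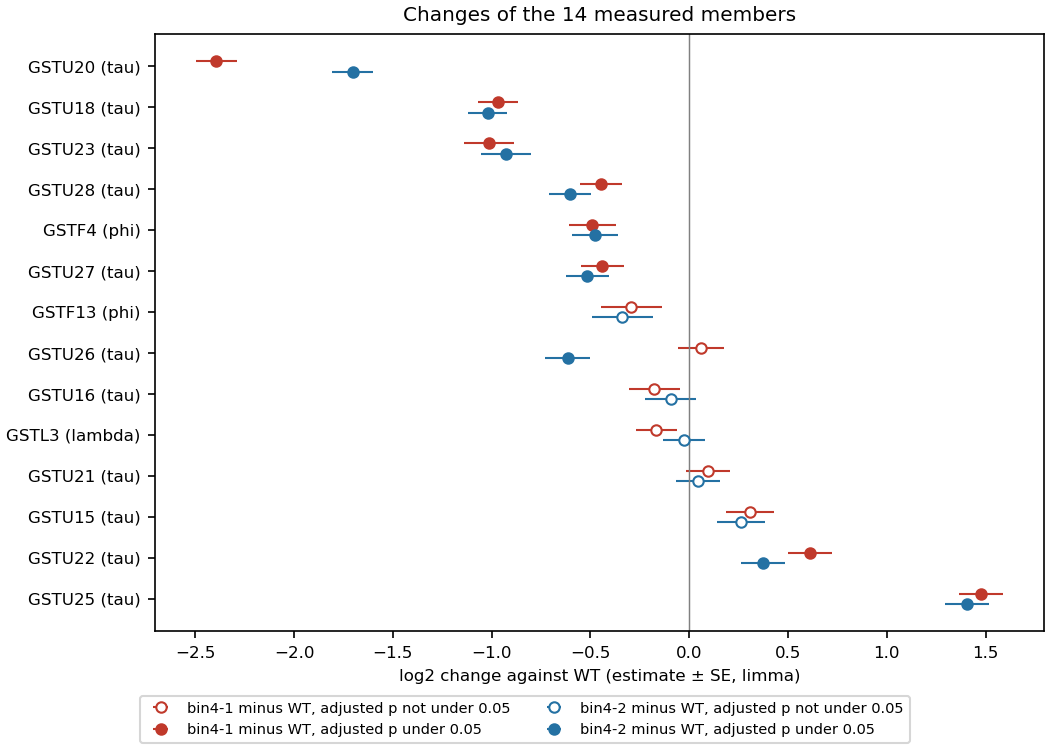
Log2 change against WT of the 14 measured members in bin4-1 and bin4-2 (limma estimate, bars show the SE), sorted by the mean of both alleles. Filled points passed an adjusted p of 0.05. The order runs from GSTU20 (-2.39 and -1.70) to GSTU25 (1.48 and 1.41), and GSTU26 is the gene with a filled point in bin4-2 only.

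Taking the mean of both alleles against WT, 7 members passed as lower and 3 as higher, beside 28.8% and 23.2% of all genes. GSTU26 was among the lower ones at -0.28 ± 0.10 (SE, limma adjusted p = 0.0347). This GSTU26 value was -0.16 without WT replicate 2 (adjusted p = 0.281), and the call was also lost without bin4-1 replicate 1 or 2 or bin4-2 replicate 1 (adjusted p = 0.0727 to 0.0904). The other 6 lower genes were those that fell in each allele.

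Members of a tandem cluster were set against each other by the log2 ratio of their intensities on each array, as a description without a test, since the pairs were picked by their changes on these same arrays. In the cluster of GSTU25 and GSTU26 the ratio of GSTU26 to GSTU25 was -1.26 and -1.22 in WT, -2.69 and -2.64 in bin4-1, and -3.27 and -3.26 in bin4-2. It was lower on all 4 mutant arrays, by 1.72 on average, and lowest in bin4-2. The ratio of GSTU22 to GSTU20, a pair added after the values had been seen, was -3.69 and -3.59 in WT, -0.46 and -0.80 in bin4-1, and -1.59 and -1.54 in bin4-2. It was higher on all 4 mutant arrays, by 2.54 on average, and highest in bin4-1. In the other clusters the successive measured members farthest apart in mean change were GSTU20 with GSTU21 and GSTU16 with GSTU15. Each of these pairs holds a dim gene whose distance above background is not known, and no ratio is given for them.

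**Figure D4:**
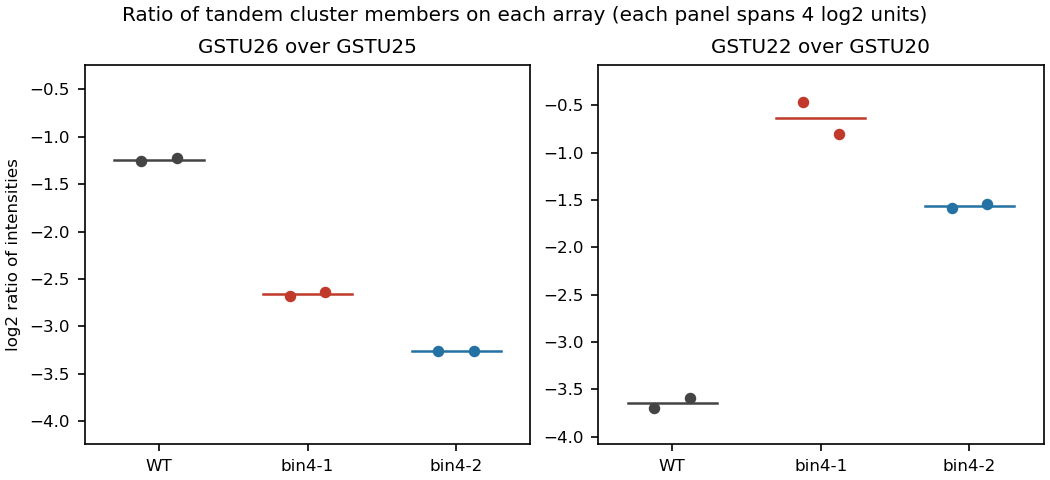
Log2 ratio of the intensities of GSTU26 to GSTU25 and of GSTU22 to GSTU20, members of the same tandem cluster, on each array (points) with group means (bars), each panel spanning the same range of log2 units. For GSTU26 over GSTU25 the WT arrays stand at -1.26 and -1.22 and the mutant arrays between -3.27 and -2.64. A ratio shows unequal change of the pair and not which gene changed.

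The alleles differed at 2 of the 14 members. GSTU20 was 1.61-fold higher in bin4-2 than in bin4-1 (log2 0.69 ± 0.10, SE, limma adjusted p = 0.0207), where its fall was the smaller one. GSTU26 was 1.6-fold lower in bin4-2 (log2 -0.68 ± 0.12, adjusted p = 0.044). Of all genes, 0.12% were higher and 0.127% lower in bin4-2 at this threshold. Both calls were lost whenever 1 mutant array was left out. The GSTU20 difference was then 0.62 to 0.77 (adjusted p = 0.0953 to 0.273) and that of GSTU26 -0.75 to -0.60 (adjusted p = 0.175 to 0.348). The other 12 members did not pass, with the widest 95% interval at GSTF13 (-0.39 to 0.29) and the largest difference among them at GSTU22 (-0.24 ± 0.11, adjusted p = 0.743).

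Other genes of glutathione metabolism were measured only in part, so their counts are small beside the 25% of all genes that fell and 22% that rose in bin4-1, and 26.6% and 21.1% in bin4-2. Of 22 genes of the glutathione and ascorbate cycle 5 were measured, 3 of which fell and 1 of which rose in each allele. TAPX, the thylakoid ascorbate peroxidase, was 4.33-fold lower in bin4-1 (log2 -2.11 ± 0.10, adjusted p = 1.47e-08 by limma) and 4.04-fold lower in bin4-2. The organellar glutathione reductase gene GR (AT3G54660) had 8.21 and 8.32 in WT, 7.27 and 7.26 in bin4-1, and 7.24 and 7.28 in bin4-2 (adjusted p = 6.19e-06 and 6e-06). SAPX, the stromal ascorbate peroxidase, changed by -0.92 and -0.90. The gene that rose was GR1, the cytosolic glutathione reductase, at 0.36 and 0.38 (adjusted p = 0.0132 and 0.00985), named after its values were seen. Its bin4-1 call was lost without WT replicate 1 or bin4-1 replicate 2 (adjusted p = 0.0614 and 0.107), and its bin4-2 call without bin4-2 replicate 1 (adjusted p = 0.0637). RCA, the shoot marker, fell beside the chloroplast genes, and its part in the result was not tested.

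Sulfate assimilation, which supplies the cysteine of glutathione, had 3 of 15 genes measured, of which 1 rose and 2 fell in each allele. The ATP sulfurylase genes APS4 and APS3 moved in opposite directions. APS4 had log2 values of 6.77 and 6.48 in WT, 8.29 and 8.37 in bin4-1, and 8.21 and 7.98 in bin4-2, and rose 3.26-fold and 2.77-fold (limma adjusted p = 4.58e-07 and 1.72e-06). APS3 had 6.80 and 6.54 in WT, 5.71 and 5.58 in bin4-1, and 5.76 and 5.66 in bin4-2, and was 2.03-fold and 1.95-fold lower (adjusted p = 1.82e-05 and 3.13e-05). SIR, the sulfite reductase, changed by -0.31 in each allele (adjusted p = 0.0298 and 0.0296), and neither call held without WT replicate 2 (-0.23 in each, adjusted p = 0.137 and 0.135) or without either array of the allele itself (adjusted p = 0.0776 to 0.13). Its bin4-2 call was also lost in a fit of the compared groups only and without either bin4-1 array (adjusted p = 0.0521). Of 10 genes of glutathione synthesis and breakdown only AT1G44790, listed as a gamma-glutamyl cyclotransferase gene, was measured, at -0.52 and -0.37 (adjusted p = 0.00145 and 0.0128). Its bin4-2 call was lost without either bin4-2 array (adjusted p = 0.0534 and 0.0515). The 9 vacuolar ABCC pumps and the 8 TGA and SCL14 regulators had 0 measured genes.

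Of 6 further genes listed for a glutathione transferase fold or activity outside the member classes, 5 were measured. In each allele 3 of them rose, beside 22% and 21.1% of all genes. AT5G44990 gave 2.71 and 3.29 in WT, 5.61 and 5.48 in bin4-1, and 5.80 and 5.51 in bin4-2. All 4 mutant arrays were far above WT, with a log2 change of 2.54 ± 0.17 in bin4-1 (adjusted p = 1.76e-07 by limma) and 2.65 ± 0.17 in bin4-2 (adjusted p = 1.41e-07). Its WT values lay at or below percentile 28.2 of the genes on those arrays, with an SD of 0.41 between the 2 arrays. How far WT stood above background is not known, so no fold is given for it. AT1G65820, listed as the microsomal glutathione transferase, rose by 1.00 ± 0.10 and 1.12 ± 0.10, and AT4G19880 by 0.77 and 0.64. AT5G45020 fell in both alleles (-0.39 and -0.42) and AT5G44000 in bin4-2 alone (-0.31, adjusted p = 0.0444), the difference between alleles not passing (adjusted p = 0.87). Both were named after their values were seen. The AT5G45020 calls were lost without WT replicate 2 (adjusted p = 0.0874 and 0.0573), without bin4-1 replicate 2 (0.18, bin4-1) and without bin4-2 replicate 2 (0.0766, bin4-2). The AT5G44000 call was lost without any array other than bin4-2 replicate 2 and in a fit of the compared groups only (adjusted p = 0.0541 to 0.232).

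**Figure D5:**
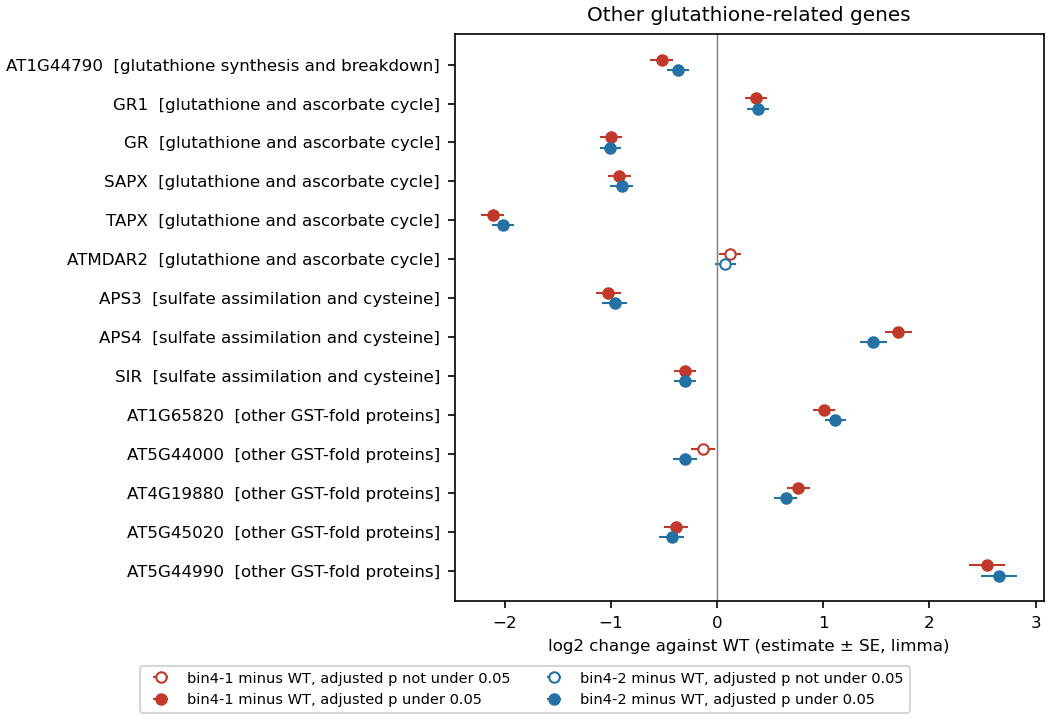
Log2 change against WT in bin4-1 and bin4-2 (limma estimate, bars show the SE) of the 14 measured genes of glutathione metabolism and related folds that are not members. Filled points passed an adjusted p of 0.05. TAPX (-2.11 and -2.02) and AT5G44990 (2.54 and 2.65) mark the ends of the range.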

How the data were processed

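RNA of 6 seedling samples, 2 per genotype, was measured on Affymetrix arrays with biotin-labelled total RNA, per the labels' protocols. The authors deposited intensities for 22810 probe sets that they had computed with RMA (background correction, equalising of arrays and probe summary), per the submitters' processing notes. No version of RMA is given there. The values lie on a linear scale (array medians 26.0 to 27.0), so log2 was taken first. For arrays, the number of arrays limits the precision.

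Left out were 64 control probe sets. Of the rest, the platform annotation pairs 13513 with 1 gene and 503 with several, and 8730 stay unnamed. Names were updated through the RefSeq gene table (13436 matched, assembly TAIR10.1), which also gave the order of loci. For 146 genes with several probe sets the one with the highest mean was kept. Each of the 14 members has 1 probe set, with an identifier of the type without a suffix for shared probes. Probe sequences were not used here, so cross-hybridisation of close paralogs was not tested.

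All genes were fitted together with limma 3.58.1 in R 4.3.3 (3 group means, 3 residual and 8.25 prior degrees of freedom, two-sided). The same fit was also run on simulated arrays, and its outcome is not given here. Tables and figures used Python 3.11.15, pandas 2.3.3, numpy 2.4.6, scipy 1.17.1 and matplotlib 3.10.9. Intervals are 95% intervals from the same fit. A tandem cluster is a run of members at most 50 locus numbers apart, which gave 12 clusters with 36 loci, of which 6 clusters held a measured member.

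Named genes are all measured members, BIN4, the 3 largest changes past the threshold of each companion list and every measured gene of a list with at most 3. The members, companion lists and tests were chosen with earlier results of these data known. Alternatives were a filter on low values, quantile normalization, an intensity trend, all probe sets, the lowest probe set, a fit of the compared groups only, a replicate block and leaving out each array.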

Additional observations from a re-analysis of the deposited data

Results flagged for a closer look

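A difference between the alleles under the same comparison passed limma's test for 2 members. GSTU20 was higher in bin4-2 than in bin4-1 by 0.69 ± 0.10 on the log2 scale (SE, adjusted p = 0.0207), with both bin4-2 arrays above both bin4-1 arrays. GSTU26 differed by -0.68 ± 0.12 (adjusted p = 0.044), with both bin4-2 arrays below both bin4-1 arrays. Each group holds 2 arrays, and neither difference passed with a mutant array left out.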

How the results depend on the processing

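No value of a member, a companion gene or BIN4 that passed, in any contrast or under any alternative, changed direction. Among the 8 members with a mean log2 of at least 5, 3 were lower in bin4-1, 4 in bin4-2 and 4 in the mean of both alleles, against 6, 7 and 7 with all genes, since 6 dimmer members were not tested there. With arrays left out in turn, where a lone array is assumed to vary like the other groups, members lower numbered 4 to 7 in bin4-1, 6 to 8 in bin4-2 and 6 to 7 in the mean, and members higher 2 to 3, 1 to 2 and 2 to 3. Between the alleles the counts were 0 to 1 in each direction, at 0 whenever a mutant array was missing. The change of the neighbour ratio ranged from -1.83 to -1.62 for GSTU26 over GSTU25.

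The title suffix shared by arrays of different groups does not pair them by their values, with correlations of deviations of -0.00334, 0.0774 and -0.0449. With that suffix as a replicate block, 0 members were lower in bin4-2 than in bin4-1 (GSTU26 -0.68, adjusted p = 0.05, at the threshold), and no other count of members moved by over 1.5 times. The deposited values hold no detection calls, so how far GSTU21, GSTU15 and, in WT, AT5G44990 stand above background is not known.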

Other observations

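Genes next to the members did not share 1 direction. This window, 10 RefSeq loci on each side of the 9 sites with a measured member (6 tandem clusters and 3 single loci), was chosen after the member values had been seen. It held 70 other measured genes, of which 20 were higher and 21 lower in the mean of both alleles (limma, adjusted over all genes), beside 23.2% and 28.8% of all genes. Around the cluster from GSTU23 to GSTU19, 5 of 8 were lower and 2 higher, and AT1G78410, the third locus after GSTU19, rose by 2.86 in bin4-1 and 3.28 in bin4-2. Around GSTU15 and GSTU16, which passed in neither allele, 7 of 11 were higher and 1 lower, with ZCF37 (AT1G59590) at 1.90 and 2.07 and AT1G59660, directly before GSTU15, at 1.33 in each. AT1G10340, 2 loci before GSTU18, which fell, rose by 3.55 and 3.39. AT1G78410, ZCF37, AT1G59660 and AT1G10340 were named after their values were seen.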
